A study of Mus musculus with 9 samples.

Results

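The enzymes that write, copy and remove DNA methylation were followed as 7 genes: the methyltransferases Dnmt1, Dnmt3a and Dnmt3b, their cofactor Uhrf1, and the dioxygenases Tet1, Tet2 and Tet3. They were taken by symbol from the deposited tables of 55488 genes, and all 7 were present in every library and passed the filter on low values that kept 19461 genes. RNA was sequenced from 9 libraries of 100 sorted cells each, taken from fetal livers of C57BL/6 mice at embryonic day 14.5, with 3 libraries in each of 3 groups. The Evi1 HSC group came from Tie2-Cre::ROSA-Evi1 embryos and was sorted as GFP+, CD150+, CD48-, c-Kit+, Sca-1+ and Lin-, a gate for haematopoietic stem cells (HSC). The WT HSC group used that surface gate without GFP, in ROSA-Evi1 embryos with no Cre. The WT KL group, c-Kit+, Sca-1- and Lin- committed progenitors, came from ROSA-Evi1 embryos as well, so every group carried the ROSA-Evi1 allele. Tie2-Cre is active in endothelial and blood cells, so the allele was not switched on in stem cells alone. Mecom is the gene of Evi1, a transcription factor with zinc fingers. No label says that replicates came from separate embryos, and the p-values below measure only the spread between these samples.

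DNA methylation in mammals sits mainly on the cytosine of CpG pairs. After each round of replication, Uhrf1 binds the hemimethylated CpG and brings Dnmt1 to copy the mark to the new strand, while Dnmt3a and Dnmt3b place marks on unmethylated DNA. The TET enzymes oxidise methylcytosine, which base excision repair or further replication can then remove. In blood, loss of Dnmt3a or Tet2 in stem cells is known to favour self-renewal, and both genes are recurrently mutated in clonal haematopoiesis and myeloid leukaemia.

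The libraries did not all fit their labels. Mecom stood at 208.8, 176.3 and 209.7 TPM (a share of transcripts scaled by gene length) in the Evi1 HSC libraries, at 161.2 and 114.2 TPM in replicates 1 and 2 of WT HSC, and at 0.0107 and 0.325 TPM in replicates 2 and 3 of WT KL. In the library labelled WT HSC replicate 3, Mecom stood at 0.0167 TPM, with 0.631 TPM of the stem cell factor Hlf and 579.3 TPM of Mpo, the myeloperoxidase of granulocyte precursors, and with Ly6a, which encodes Sca-1, listed at 0. In the library labelled WT KL replicate 1, Mecom stood at 90.8 TPM, with 163.9 TPM of Hlf, 13.6 TPM of Mpo and 19.7 TPM of Ly6a. Both went against their labels. Neither was moved to another group. Results of the 7 genes are given over 9 libraries as labelled and over the 7 that remain without them. For S phase genes, cell markers and single genes that work with the enzymes, tests over the 7 libraries are given. Over 9 libraries no gene of the S phase or cell marker lists was called in any comparison. Genes at 1 TPM or more numbered 15422 to 15819 in the library with the label WT HSC replicate 3 and replicates 2 and 3 of WT KL, and 18258 to 18806 in the other 6. Read depth is unknown, because TPM does not keep it.

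In the mouse annotation (GRCm38, GENCODE M21), Dnmt1 lies at chr9:20907209-20959888 on the minus strand and Uhrf1 at chr17:56303321-56323486 on the plus strand. Dnmt3a is at chr12:3806007-3914443 and Dnmt3b at chr2:153649450-153687730, both on the plus strand. The minus strand holds Tet1 at chr10:62804570-62908996, Tet2 at chr3:133463679-133545139 and Tet3 at chr6:83362373-83459084. Of the exonic bases of Dnmt3a, 133 of 16642 are shared with Dnmt3aos, and 43 of the 16870 of Tet2 are shared with Gm42567. The other 5 genes share none with another annotated gene. The values are per gene, so the isoforms of Dnmt3a that start at different promoters are not told apart.

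Promoter windows of 300 bases (250 before a start and 50 after it) were available for all 7 genes from RefSeq (GRCm38.p6), 12 windows in all. They were searched on both strands for letters of E2F sites (TTCCCGC and its variants with other central letters, TTGGCGC or else TTCGCGC), which bind the factors that drive S phase genes. Other letters searched were CCGGAAG for ETS factors, AGATAA for GATA factors, GACAAGATA for the first zinc finger domain of EVI1 and GAAGATGAG for the second. E2F letters were in both Uhrf1 windows, at positions -48 and -184 from the start, and in 1 of the 3 Dnmt1 windows, chr9:20952574-20952873, at -219, -158 and 35. They were in none of the windows of Dnmt3a, Dnmt3b or the TET genes, and 8.07% of all 32817 promoter windows hold them. The other letters were in no window of the 7 genes, against 8.86% of all windows for ETS, 11.2% for GATA, and 0.119% and 0.399% for the EVI1 letters. A match describes letters, not a bound site, and the absence of a match says nothing of the factor. The windows below are those of the genes whose levels differed between stem cell and progenitor libraries: Uhrf1 at chr17:56303087-56303386 and chr17:56304063-56304362, Dnmt3a at chr12:3806730-3807029 and Dnmt3b at chr2:153649199-153649498, all on the plus strand, and Tet1 at chr10:62887275-62887574 on the minus strand. Each is written 5′ to 3′ on the strand of its gene, with E2F letters in capitals. In this order they hold 12, 33, 46, 30 and 17 CpG pairs, where the median of all promoter windows is 7. Dnmt3a has 3 windows, with 46, 47 and 18 CpG pairs from the most upstream on. The most upstream is printed, the next overlaps it, and none of the 3 holds the letters searched.
Uhrf1, first window: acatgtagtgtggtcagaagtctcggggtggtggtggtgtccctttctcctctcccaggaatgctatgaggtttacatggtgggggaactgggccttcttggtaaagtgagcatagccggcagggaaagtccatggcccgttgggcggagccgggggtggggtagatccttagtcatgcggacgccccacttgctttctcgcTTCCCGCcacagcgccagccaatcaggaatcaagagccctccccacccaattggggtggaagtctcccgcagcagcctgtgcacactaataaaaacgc
Uhrf1, second window: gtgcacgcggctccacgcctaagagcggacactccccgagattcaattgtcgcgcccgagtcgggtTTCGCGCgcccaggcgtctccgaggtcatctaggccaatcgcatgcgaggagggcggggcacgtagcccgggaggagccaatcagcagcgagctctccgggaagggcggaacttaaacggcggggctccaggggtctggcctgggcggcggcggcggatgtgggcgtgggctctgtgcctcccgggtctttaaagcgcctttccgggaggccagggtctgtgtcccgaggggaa
Dnmt3a: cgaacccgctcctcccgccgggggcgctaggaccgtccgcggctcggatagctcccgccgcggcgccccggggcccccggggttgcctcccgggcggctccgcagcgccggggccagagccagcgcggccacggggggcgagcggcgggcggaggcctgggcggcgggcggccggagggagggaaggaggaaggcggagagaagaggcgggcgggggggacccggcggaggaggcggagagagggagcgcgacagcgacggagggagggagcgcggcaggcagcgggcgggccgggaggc
Dnmt3b: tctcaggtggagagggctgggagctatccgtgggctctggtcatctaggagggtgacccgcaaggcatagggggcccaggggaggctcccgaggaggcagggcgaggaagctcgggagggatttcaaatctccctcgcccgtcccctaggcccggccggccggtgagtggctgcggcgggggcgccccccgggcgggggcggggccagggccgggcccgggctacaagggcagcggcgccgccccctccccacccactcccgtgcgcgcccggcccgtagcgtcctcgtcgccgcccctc
Tet1: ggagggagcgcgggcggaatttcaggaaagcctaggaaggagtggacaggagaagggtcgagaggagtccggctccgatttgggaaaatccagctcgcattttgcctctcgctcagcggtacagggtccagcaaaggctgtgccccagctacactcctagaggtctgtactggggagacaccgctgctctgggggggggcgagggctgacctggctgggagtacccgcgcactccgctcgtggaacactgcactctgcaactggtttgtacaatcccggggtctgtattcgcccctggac

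Across the 7 libraries, mean TPM of the 3 genes Dnmt3a, Dnmt3b and Tet1 was 6.32 to 16.5 times higher in WT HSC than in WT KL. That of Uhrf1 was 1.56 times higher in WT KL, and Dnmt1, Tet2 and Tet3 did not pass the test. Of the 7 genes, 4 were called in WT HSC against WT KL (3 higher, 1 lower), where 37.5% of all tested genes were called, and 4 in Evi1 HSC against WT KL (3 higher, 1 lower), where 45.5% were. By direction, calls above WT KL made up 26.7% and calls below it 10.8% of all tested genes for WT HSC, against 31.3% and 14.3% for Evi1 HSC. Both comparisons share the WT KL libraries. In Evi1 HSC against WT HSC none of the 7 was called by limma over 7 libraries (1 at an unadjusted p under 0.05; 0.206% of all genes called). Over 9 libraries limma called none of the 7 in any comparison, with 0 at an unadjusted p under 0.05 in each. The shares of all genes called there were 0.00514% between Evi1 HSC and WT HSC, 0.00514% between WT HSC and WT KL and 0.0103% between Evi1 HSC and WT KL. The median log2 difference of the 7 genes over 7 libraries was 0.11 between Evi1 HSC and WT HSC, 0.06 between WT HSC and WT KL, and 0.38 between Evi1 HSC and WT KL, beside 0.000526, 0.256 and 0.278 for all tested genes.

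**Figure D1:**
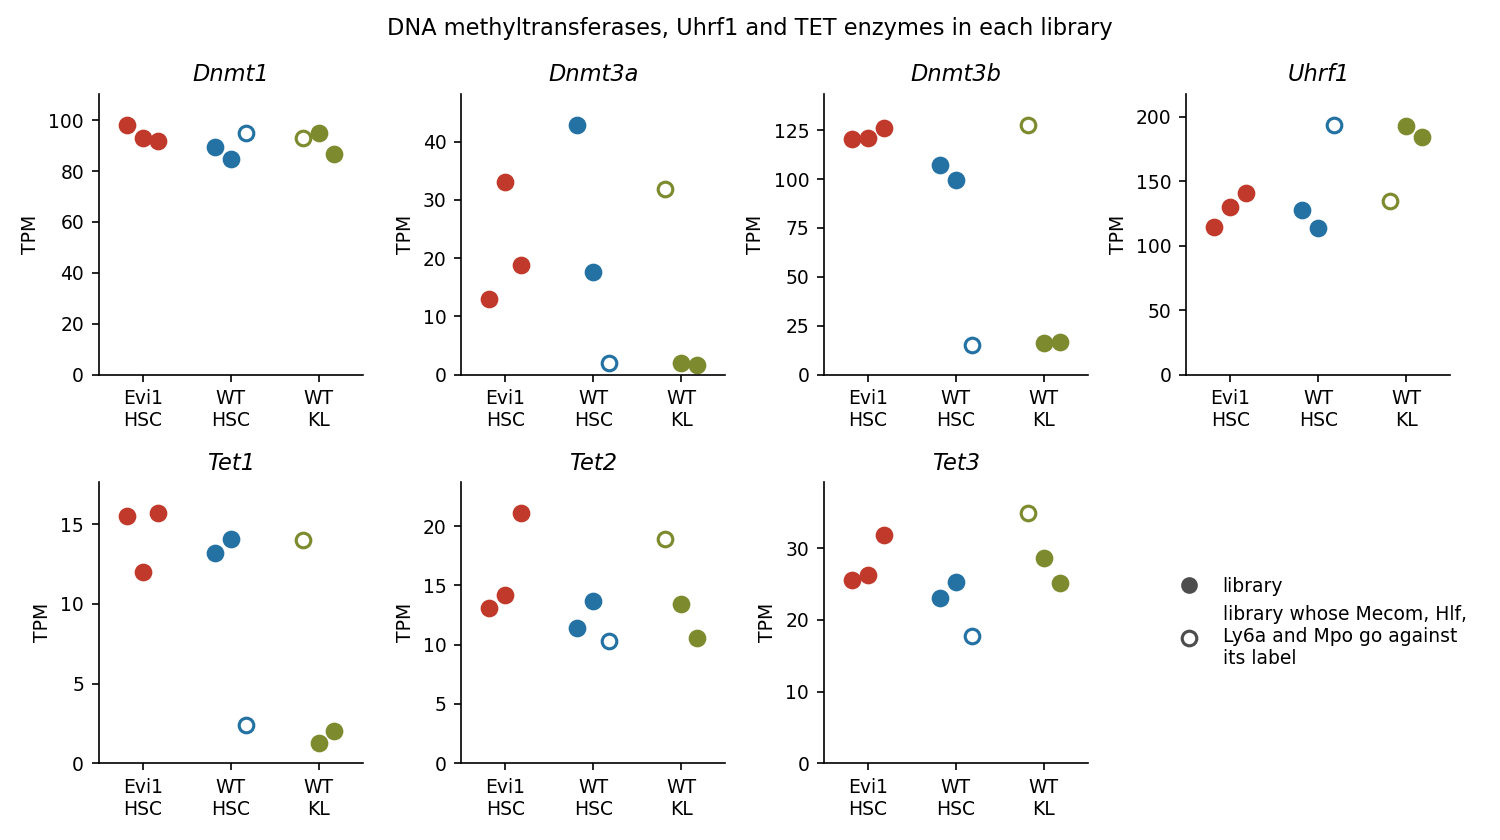
TPM of the 7 genes in each of the 9 libraries, by labelled group; each point is 1 library, and open points are the libraries labelled WT HSC replicate 3 and WT KL replicate 1. Dnmt3a, Dnmt3b and Tet1 form a high and a low set of libraries, with the open points in the set opposite to their label, and Dnmt1 stays between 84.6 and 98.2 TPM in all of them.

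Of the enzymes that copy the mark, Dnmt1 showed the narrowest range of the 7 genes relative to its level. It stood at 98.2, 92.9 and 91.7 TPM across Evi1 HSC, at 89.5, 84.6 and 94.9 TPM in replicates 1, 2 and 3 of WT HSC, and at 93.0, 94.8 and 86.8 TPM in those of WT KL. The groups overlapped, except that without the library labelled WT HSC replicate 3 both WT HSC values lay below the Evi1 HSC values. Over 7 libraries the mean was 94.3 ± 3.48 TPM in Evi1 HSC (SD, n = 3), 87.1 ± 3.44 TPM in WT HSC (SD, n = 2) and 90.8 ± 5.69 TPM in WT KL (SD, n = 2). The WT HSC minus WT KL difference in log2(TPM + 1) was -0.06 (SE 0.11; limma, Benjamini-Hochberg adjusted p = 0.707), with a 95% interval of -0.32 to 0.20. Evi1 HSC minus WT HSC was 0.11 (SE 0.10, adjusted p = 0.829), with an interval of -0.13 to 0.35. Over 9 libraries the 3 differences ran from -0.03 to 0.07, with adjusted p of 0.83 to 0.975. The level of Dnmt1 relative to other genes depends on the scaling. The median gene of the WT HSC and Evi1 HSC libraries stood 0.48 and 0.47 higher on the log2 scale than that of the WT KL libraries, and with each library centred on its median the Dnmt1 difference from WT KL was -0.54 in WT HSC (adjusted p = 0.00545) and -0.41 in Evi1 HSC (adjusted p = 0.00872).

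Over 7 libraries without centring, Uhrf1, the reader of hemimethylated DNA, was the only gene of the 7 called higher in WT KL. It stood at 114.8, 130.4 and 140.8 TPM across Evi1 HSC, at 127.9 and 113.9 TPM in replicates 1 and 2 of WT HSC, and at 192.6 and 184.7 TPM in replicates 2 and 3 of WT KL. The libraries labelled WT HSC replicate 3 and WT KL replicate 1 stood at 193.9 and 134.9 TPM, in this order. Replicates 2 and 3 of WT KL lay above all 5 stem cell libraries (Evi1 HSC replicates 1 to 3 and WT HSC replicates 1 and 2), and over 9 libraries the labelled groups overlapped. Over 7 libraries the difference was -0.64 for WT HSC minus WT KL (SE 0.13, limma adjusted p = 0.00945) and -0.55 for Evi1 HSC minus WT KL (SE 0.12, adjusted p = 0.0092), where mean TPM was 1.47 times higher in WT KL. The first of these calls was lost without WT HSC replicate 2 or WT KL replicate 2 (adjusted p up to 0.0557), and the second without WT KL replicate 2 (adjusted p = 0.0587). Evi1 HSC minus WT HSC was 0.09 (SE 0.12, adjusted p = 0.908; 95% interval -0.20 to 0.37). Over 9 libraries the WT HSC minus WT KL difference was -0.25 (SE 0.22, adjusted p = 0.963) and the Evi1 HSC minus WT KL difference was -0.39 (SE 0.22, adjusted p = 0.333).

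The ratio of Uhrf1 to Dnmt1 TPM put these values on one scale. It was 1.17, 1.40 and 1.54 in Evi1 HSC, 1.43 and 1.35 in replicates 1 and 2 of WT HSC, and 2.03 and 2.13 in replicates 2 and 3 of WT KL. The libraries labelled WT HSC replicate 3 and WT KL replicate 1 had ratios of 2.04 and 1.45. A list of 20 S phase genes moved with Uhrf1. Over 7 libraries 16 of the 20 were lower in WT HSC than in WT KL and 17 were lower in Evi1 HSC, with median differences of -0.73 and -0.85, where 10.8% and 14.3% of all tested genes were called lower. Their summed level was 1043 to 1085 TPM across Evi1 HSC, 1178.7 and 1080.5 TPM in replicates 1 and 2 of WT HSC, and 2008 and 1986 TPM in replicates 2 and 3 of WT KL. Of the 2 libraries against their labels, that labelled WT HSC replicate 3 held 1953 TPM and that labelled WT KL replicate 1 held 1157 TPM. The part of the S phase genes in the Uhrf1 difference was not tested.

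Of the enzymes that set new marks, Dnmt3b was the more abundant in every library. It stood at 120.7, 120.9 and 126.2 TPM across Evi1 HSC, at 107.1 and 99.6 TPM in replicates 1 and 2 of WT HSC, and at 16.0 and 16.7 TPM in replicates 2 and 3 of WT KL. The value was 15.3 TPM for the library labelled WT HSC replicate 3, and 127.8 TPM for that labelled WT KL replicate 1. The values formed a set at 99.6 to 127.8 TPM and a set at 15.3 to 16.7 TPM, with nothing between. Over 7 libraries the groups did not overlap, and the difference was 2.59 for WT HSC minus WT KL (SE 0.11, limma adjusted p = 4.19e-05; 6.32 times higher in mean TPM) and 2.83 for Evi1 HSC minus WT KL (SE 0.10, adjusted p = 1.37e-05; 7.49 times higher). As labelled, over 9 libraries, the same differences were 0.73 (SE 0.91, adjusted p = 0.963) and 1.87 (SE 0.91, adjusted p = 0.31), and neither passed the test.

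Over 7 libraries Dnmt3b was also the gene of the 7 with the lowest p in Evi1 HSC against WT HSC. The Evi1 HSC mean was 122.6 ± 3.14 TPM (SD, n = 3) and the WT HSC mean 103.3 ± 5.31 TPM (SD, n = 2), with all 3 Evi1 HSC values above both WT HSC values. The difference was 0.24 (SE 0.10) and did not pass limma's adjustment (unadjusted p = 0.0468, adjusted p = 0.587). The library labelled WT KL replicate 1, from embryos with no Cre per its label, held more Dnmt3b than any Evi1 HSC library. Over 9 libraries the difference was 1.14 (SE 0.91, adjusted p = 0.791).

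Relative to its mean, Dnmt3a varied more between the Evi1 HSC libraries than the other 6 genes. It stood at 13.0, 33.0 and 18.8 TPM across Evi1 HSC and at 42.9 and 17.6 TPM in replicates 1 and 2 of WT HSC, against 1.95 and 1.71 TPM in replicates 2 and 3 of WT KL. The libraries labelled WT HSC replicate 3 and WT KL replicate 1 stood at 2.04 and 31.9 TPM, in this order. The Evi1 HSC and WT HSC values overlapped, and over 7 libraries both lay above the WT KL values. The difference was 3.34 for WT HSC minus WT KL (SE 0.50, limma adjusted p = 0.00298; 16.5 times higher in mean TPM) and 2.90 for Evi1 HSC minus WT KL (SE 0.46, adjusted p = 0.00257; 11.8 times higher in mean TPM). Their 95% intervals were 2.14 to 4.53 and 1.81 to 3.99, or 4.41 to 23.1 and 3.51 to 15.9 as ratios of TPM + 1. Evi1 HSC minus WT HSC was -0.44 (SE 0.46, adjusted p = 0.865) over 7 libraries and 0.64 (SE 1.16, adjusted p = 0.861) over 9, so its sign turned with the library labelled WT HSC replicate 3. Its interval of -1.53 to 0.66 over 7 libraries spans, as a ratio of TPM + 1, a 1.58-fold rise and a fall to 0.347 of the WT HSC level. Over 9 libraries the differences from WT KL were 1.08 for WT HSC (SE 1.16, adjusted p = 0.963) and 1.72 for Evi1 HSC (SE 1.16, adjusted p = 0.385).

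Of the TET enzymes, Tet1 followed the pattern of the de novo enzymes. It stood at 15.5, 12.0 and 15.7 TPM across Evi1 HSC and at 13.2 and 14.1 TPM in replicates 1 and 2 of WT HSC, against 1.28 and 2.0 TPM in replicates 2 and 3 of WT KL. Of the 2 libraries against their labels, that labelled WT HSC replicate 3 held 2.41 TPM and that labelled WT KL replicate 1 held 14.0 TPM. Both stem cell groups overlapped with each other and lay above WT KL over 7 libraries. The difference was 2.49 for WT HSC minus WT KL (SE 0.22, limma adjusted p = 0.000365; 8.33 times higher in mean TPM) and 2.55 for Evi1 HSC minus WT KL (SE 0.20, adjusted p = 0.000139; 8.78 times higher in mean TPM). Evi1 HSC minus WT HSC was 0.06 (SE 0.20, adjusted p = 0.969), with a 95% interval of -0.41 to 0.53. Over 9 libraries the 3 differences were 0.94, 1.71 and 0.77 in the same order, with an SE of 0.78 each and adjusted p of 0.963, 0.31 and 0.791.

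Tet2, which lacks the CXXC DNA-binding domain found in Tet1, stood at 13.1, 14.2 and 21.1 TPM in Evi1 HSC. The WT HSC libraries held 11.4, 13.7 and 10.3 TPM and the WT KL libraries 18.9, 13.4 and 10.6 TPM, in the order of replicates 1, 2 and 3. The 3 groups overlapped. Over 7 libraries the difference was 0.06 for WT HSC minus WT KL (SE 0.26, limma adjusted p = 0.871; 95% interval -0.54 to 0.67), 0.38 for Evi1 HSC minus WT KL (SE 0.23, adjusted p = 0.228; interval -0.18 to 0.93) and 0.32 for Evi1 HSC minus WT HSC (SE 0.23, adjusted p = 0.788; interval -0.24 to 0.87). The signs of the first and second turned with each library centred on its median, to -0.42 and -0.09. With all 9 libraries the adjusted p were 0.963, 0.697 and 0.791.

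Tet3 was the most abundant TET gene in every library. It stood at 25.6, 26.3 and 31.9 TPM across Evi1 HSC, at 23.0, 25.3 and 17.7 TPM in replicates 1, 2 and 3 of WT HSC, and at 34.9, 28.6 and 25.1 TPM in those of WT KL. All Evi1 HSC values lay above all WT HSC values, by 0.20 on the log2 scale over 7 libraries (SE 0.15, limma adjusted p = 0.795) and by 0.34 over 9 (SE 0.20, adjusted p = 0.791), and the difference did not pass the test in either. Over 7 libraries WT HSC minus WT KL was -0.14 (SE 0.16, adjusted p = 0.526; 95% interval -0.53 to 0.24) and Evi1 HSC minus WT KL was 0.05 (SE 0.15, adjusted p = 0.792; interval -0.30 to 0.41). With libraries centred on their medians these were -0.62 (adjusted p = 0.0181) and -0.41 (adjusted p = 0.0487), so the second turned its sign. With all 9 they were -0.41 (SE 0.20, adjusted p = 0.963) and -0.07 (SE 0.20, adjusted p = 0.841).

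**Figure D2:**
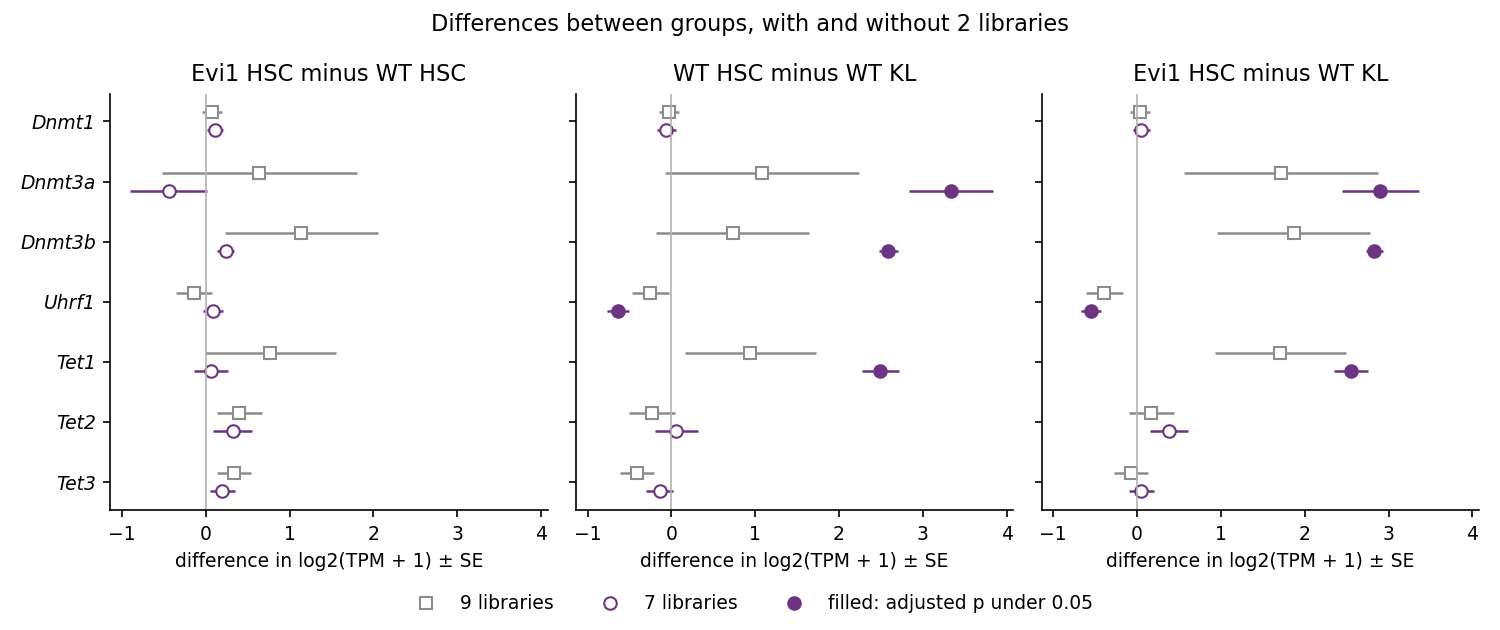
Differences in log2(TPM + 1) between groups for the 7 genes, with SE, from the fits over 9 libraries (squares) and over 7 (circles); filled symbols have an adjusted p under 0.05. Filled symbols occur in both comparisons with WT KL over 7 libraries, for Dnmt3a, Dnmt3b and Tet1 to the right of 0 and for Uhrf1 to the left, and nowhere else.

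With libraries centred on their medians, the differences from WT KL over 7 libraries were 2.86 and 2.43 for Dnmt3a, 2.11 and 2.37 for Dnmt3b, 2.01 and 2.08 for Tet1, and -1.12 and -1.02 for Uhrf1, in WT HSC and Evi1 HSC in that order. These kept their signs and stayed called, and Dnmt1 and Tet3 were called lower as given above. Centring lowers every difference from WT KL, by 0.48 in WT HSC and 0.47 in Evi1 HSC. The share of all tested genes called with the centring was not taken, so the added calls cannot be read as particular to these genes.

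The order of the 7 genes by TPM, which is per length, differed between stem cell and progenitor libraries. In the Evi1 HSC libraries Uhrf1 (114.8 to 140.8 TPM) and Dnmt3b (120.7 to 126.2 TPM) came first with overlapping ranges, followed by Dnmt1 (91.7 to 98.2 TPM). Tet3 (25.6 to 31.9 TPM) lay above Tet2 (13.1 to 21.1 TPM) and Tet1 (12.0 to 15.7 TPM), whose ranges overlapped, and the range of Dnmt3a (13.0 to 33.0 TPM) overlapped all 3. In replicates 2 and 3 of WT KL the order was Uhrf1, Dnmt1, Tet3, Dnmt3b and Tet2, with no overlap between neighbours, and Dnmt3a and Tet1 shared the last place at 1.28 to 2.0 TPM. Among all tested genes of a library, Dnmt1 and Uhrf1 lay above 95.8 to 98.5% in all 9. Dnmt3b lay above 97.3 to 98.0% in the 5 stem cell libraries and the library labelled WT KL replicate 1, and above 70.7 to 73.7% in the other 3.

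The make-up of the methyltransferase family differed between these libraries as well. Dnmt1, Dnmt3a and Dnmt3b summed to 231.9, 246.8 and 236.7 TPM across Evi1 HSC, 239.5 and 201.9 TPM in replicates 1 and 2 of WT HSC, and 112.8 and 105.2 TPM in replicates 2 and 3 of WT KL. The value was 112.3 TPM for the library labelled WT HSC replicate 3, and 252.7 TPM for that labelled WT KL replicate 1. Dnmt3b made up 44.7 to 53.3% of this sum in the 5 stem cell libraries of the 7 and 14.2 and 15.9% in replicates 2 and 3 of WT KL, where Dnmt1 made up 84.1 and 82.5%. The ratio of Dnmt3b to Dnmt3a ranged from 2.5 to 9.27 in the 5 stem cell libraries and was 8.18 and 9.77 in the 2 progenitor libraries.

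The TET genes summed to 54.2, 52.6 and 68.7 TPM across Evi1 HSC, 47.7 and 53.1 TPM in replicates 1 and 2 of WT HSC, and 43.3 and 37.7 TPM in replicates 2 and 3 of WT KL. Tet1 made up 22.9 to 28.6% of the sum in the 5 stem cell libraries and 2.96 and 5.31% in replicates 2 and 3 of WT KL. The libraries labelled WT HSC replicate 3 and WT KL replicate 1 had Tet1 shares of 7.90% and 20.7%. Tet3 made up 46.4 to 50.1% in the stem cell libraries and 66.1 and 66.5% in the progenitor libraries.

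**Figure D3:**
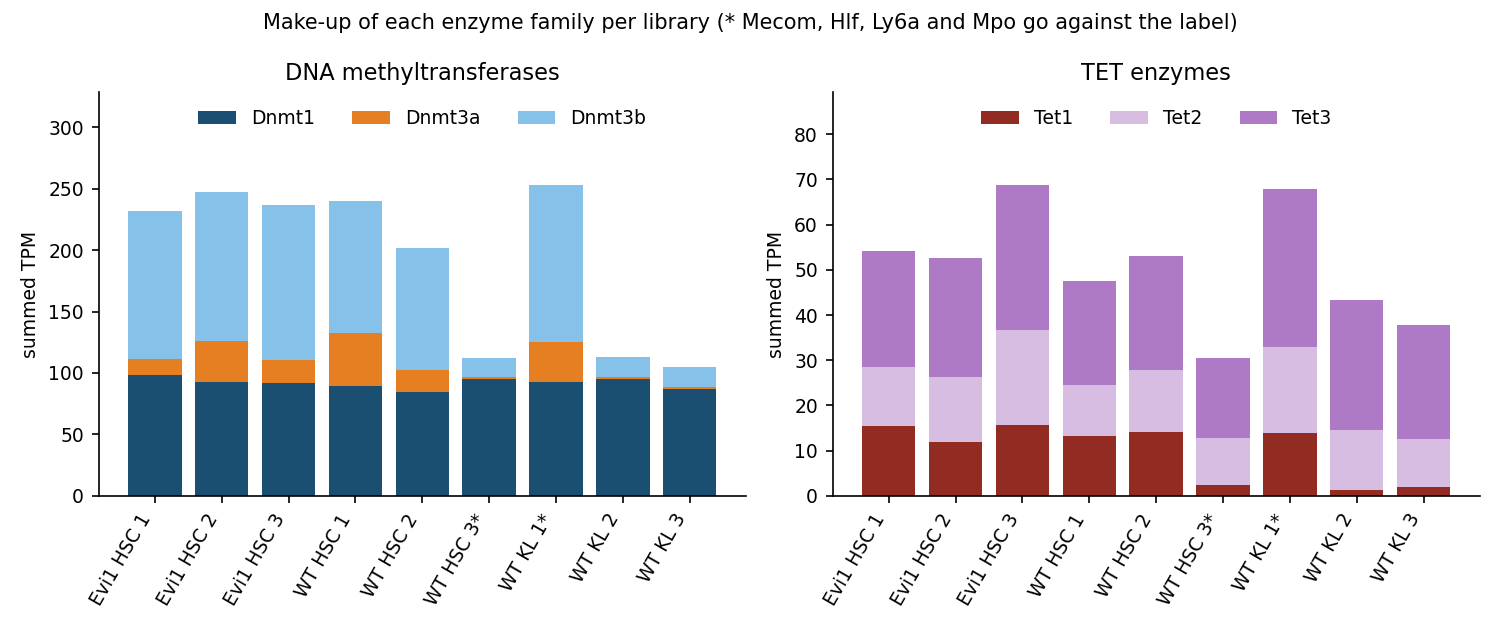
Summed TPM of Dnmt1, Dnmt3a and Dnmt3b (left) and of Tet1, Tet2 and Tet3 (right) in each library, stacked by gene; asterisks mark the libraries labelled WT HSC replicate 3 and WT KL replicate 1. The Dnmt3b share is 44.7 to 53.3% in 6 libraries and 13.6 to 15.9% in 3, and the Dnmt1 height changes little.

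Cell markers differed between the groups as well, some lists in the direction of Dnmt3a, Dnmt3b and Tet1 and others in the opposite direction. In bulk samples, fewer cells of a type and less RNA per cell cannot be told apart. Shares of all tested genes called over 7 libraries, against which the counts below stand, were 26.7% higher and 10.8% lower in WT HSC than in WT KL, and 31.3% higher and 14.3% lower in Evi1 HSC. Of 9 tested granulocyte and monocyte genes, 8 were lower in both stem cell groups than in WT KL over 7 libraries. The 10 genes of that list summed to 34.1 to 39.7 TPM across Evi1 HSC, 40.9 and 26.5 TPM in replicates 1 and 2 of WT HSC, and 2084 and 626.3 TPM in replicates 2 and 3 of WT KL. Of 13 stem cell genes, 12 were higher in both stem cell groups, with sums of 920.9 to 1089 TPM in the 5 stem cell libraries and 102.2 and 106.6 TPM in the progenitor libraries. These lists hold Mpo, Mecom and Hlf, by which the 2 libraries were found to go against their labels. Without them 7 of 8 granulocyte and monocyte genes were lower and 10 of 11 stem cell genes higher in both stem cell groups. Many genes of both lists, among them Elane, Ctsg, Procr and Esam, passed the filter on low values through the libraries where they are high. So did Cdh5, Kdr, Stab2, Lyve1 and Emcn of the endothelial list given next. The same holds for Klf1 and Ermap of the erythroid list, and for Pf4 and Ppbp of the megakaryocyte list. The counts of all these lists describe the libraries and are not a test of the lists. Of 7 endothelial genes, some of which stem cells also express, 5 were higher in WT HSC and 7 in Evi1 HSC than in WT KL. They summed to 327.9 to 733.0 TPM in Evi1 HSC, to 399.9 and 247.1 TPM in WT HSC, and to 13.0 and 17.5 TPM in WT KL. Egfl7 alone held 138.6 to 609.8 TPM in the 5 stem cell libraries. Stab2 and Lyve1 stood at 0.175 and 0.393 TPM in WT HSC replicate 1, and at 8.26 to 13.0 TPM in the other stem cell libraries. Of 11 erythroid genes, 1 was higher and 6 lower in WT HSC than in WT KL, 2 were higher and 6 lower in Evi1 HSC, and 4 were lower in Evi1 HSC than in WT HSC, where 0.206% of all tested genes were called. Their sums were 1133 to 2940 TPM in Evi1 HSC, 1074 and 1346 TPM in WT HSC, and 1455 and 1426 TPM in WT KL. Granulocyte and monocyte genes summed to 1156 TPM and stem cell genes to 93.0 TPM for the library labelled WT HSC replicate 3, against 42.3 and 953.7 TPM in that labelled WT KL replicate 1. Of 5 tested megakaryocyte genes, 3 were higher in WT HSC and 4 in Evi1 HSC than in WT KL. The list summed to 33.4 to 37.2 TPM in Evi1 HSC, to 40.4 and 45.3 TPM in WT HSC, and to 7.79 and 8.46 TPM in WT KL. Of 5 mast cell genes 2 passed the filter on low values. Gata2, which stem cells also express, was higher by 2.40 in WT HSC (limma adjusted p = 0.00074) and 2.47 in Evi1 HSC (adjusted p = 0.000287). Cpa3, a protease of mast cells, stood at 12.9 and 8.49 TPM in WT KL and at most 0.633 TPM in the 5 stem cell libraries. It passed that filter through the libraries where it is high, so no test is given for it. Tpsb2 was listed at 0 in all 9 libraries. Of 8 macrophage genes only Mrc1 passed the filter, at 6.37 to 7.81 TPM in Evi1 HSC, 0.199 and 5.61 TPM in WT HSC, and 0 and 0.0436 TPM in WT KL. Of 7 hepatocyte genes only Hnf4a did, at 1.79 to 2.10 TPM, 0.729 and 1.94 TPM, and 0.235 and 0.417 TPM in the same order. Macrophage genes summed to 9.49 to 9.97 TPM in Evi1 HSC, 1.80 and 8.82 TPM in WT HSC, and 1.92 and 3.45 TPM in WT KL. Mrc1 held the largest part in Evi1 HSC and WT HSC replicate 2. There Adgre1, C1qa, C1qb, C1qc and Marco were under 1 TPM, and Cd5l and Vcam1 reached 1.34 and 2.05 TPM. Hepatocyte genes summed to at most 9.59 TPM in the 7 libraries and to 24.6 TPM in that labelled WT KL replicate 1. No lymphoid or stromal gene passed the filter on low values. The part of cell make-up in the differences of the 7 genes was not tested.

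The genes whose pattern was most like each member were ranked by Pearson r of log2(TPM + 1) over the 9 libraries, among 6568 genes. The libraries form a few sets, so r describes the shared sets, and no p is given. Dnmt3b was most like Ltb, a lymphotoxin, Cd27, a receptor of the TNF receptor family, and Esam, an adhesion molecule of stem and endothelial cells, each with r of 0.998. Among the genes most like Tet1 were Rassf5 (0.998) and the RNA-binding protein gene Igf2bp2 (0.996). Dnmt3a was most like Snx29 (0.980), Smim24 (0.979) and Csad (0.975). Snx29 shared the spread of Dnmt3a within groups, at 9.17, 32.2 and 10.6 TPM across Evi1 HSC and 37.0 and 21.3 TPM in replicates 1 and 2 of WT HSC. Uhrf1 was most like Mcm3 (0.984), a subunit of the replicative helicase, Rrn3 (0.983), a factor of RNA polymerase I, and Ldha (0.983), lactate dehydrogenase. Dnmt1 was most like the kinesin gene Cenpe (0.907) and the histone genes H2bc3 (0.903) and Hist1h2ap (0.901). Tet2 was most like Ptdss1 (0.960), Cd2ap (0.932) and Ammecr1l (0.918), and Tet3 was most like St7 (0.892), Fyco1 (0.879) and Sugp2 (0.874). Among the members themselves, r was 0.99 for Dnmt3b and Tet1, 0.95 for Dnmt3a and Dnmt3b, 0.85 for Tet2 and Tet3, and -0.93 for Dnmt3b and Uhrf1.

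The genes that work with the enzymes were followed in 5 lists of 55 genes, of which 50 were tested. Values given in pairs below are log2 differences from WT KL over 7 libraries, WT HSC first and Evi1 HSC second. Over 7 libraries 24 of the 50 were called in WT HSC against WT KL, 13 higher and 11 lower, and 30 in Evi1 HSC against WT KL, 15 higher and 15 lower, where 37.5% and 45.5% of all tested genes were called. The genes called higher include Zfp57, Zbtb4 and Cxxc5, which passed the filter on low values through the libraries where they are high. With libraries centred on their medians the splits were 7 higher and 21 lower, and 7 higher and 22 lower. Centring lowers every difference from WT KL, by 0.48 in WT HSC and 0.47 in Evi1 HSC. The share of all tested genes called with it was not taken, so these splits cannot be read as a result of the lists. Without the centring the median differences of the 50 genes were 0.03 and 0.06, below the 0.256 and 0.278 of all tested genes. In Evi1 HSC against WT HSC none was called by limma over 7 libraries (4 at an unadjusted p under 0.05). Over 9 libraries none was called in any comparison (1 between Evi1 HSC and WT HSC, 0 between WT HSC and WT KL and 9 between Evi1 HSC and WT KL at an unadjusted p under 0.05). The counts over 7 libraries fell to 13 and 19 without WT KL replicate 3, and the first fell to 15 without WT KL replicate 2.

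Of 5 tested partners of maintenance methylation, Pcna and Lig1 were lower in both stem cell groups and the other 3 were not called. With libraries centred on their medians those 3 were called lower in both groups as well (limma adjusted p of 0.00566 to 0.0361). The share of all tested genes called with the centring was not taken. Among all tested genes 10.8% were called lower in WT HSC and 14.3% in Evi1 HSC. Pcna, the replication clamp, stood at 91.5 to 109.0 TPM across Evi1 HSC and 105.6 and 90.6 TPM in replicates 1 and 2 of WT HSC, against 177.7 and 183.3 TPM in replicates 2 and 3 of WT KL. The difference was -0.88 for WT HSC (SE 0.13, limma adjusted p = 0.00292) and -0.86 for Evi1 HSC (SE 0.12, adjusted p = 0.00149). Lig1, the DNA ligase of replication, differed by -0.45 (adjusted p = 0.0218) and -0.39 (adjusted p = 0.0216), with 5.79% of its exonic bases in common with Zswim9. Dppa3, an inhibitor of Uhrf1 in oocytes, was listed at 0 in all libraries.

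Of 11 tested partners of the de novo enzymes, 3 were higher in WT HSC than in WT KL and none lower, and 5 were higher and 1 lower in Evi1 HSC. Both counts of higher genes hold Zfp57, listed at 0 in replicates 2 and 3 of WT KL. Zfp57 passed the filter on low values through the libraries where it is high, so these counts are not a test of the list. The 3 of 11 lie near the 26.7% of all tested genes called higher in WT HSC, where 10.8% were called lower. For Evi1 HSC 31.3% were called higher and 14.3% lower. Atrx, a chromatin remodeller, was higher by 1.03 (limma adjusted p = 0.0401) and 0.97 (adjusted p = 0.0303), and neither call held with libraries centred on their medians (0.55 and 0.50, adjusted p = 0.205 and 0.195). Dnmt3c, a rodent methyltransferase known from male germ cells, stood at 5.55 to 10 TPM in the 5 stem cell libraries and 2.87 and 2.79 TPM in replicates 2 and 3 of WT KL, differences of 0.89 (adjusted p = 0.0133) and 1.32 (adjusted p = 0.00138). With the centring the first was 0.41 (adjusted p = 0.141) and not called. The gene lies next to Dnmt3b on chromosome 2, and 514 of the 2174 stretches of 50 bases in its transcript (23.6%) also occur in Dnmt3b, so reads of these genes could be split between them and the Dnmt3c values are uncertain. Ehmt2 and Setdb1, methyltransferases of histone H3 lysine 9, were called in Evi1 HSC against WT KL alone, at 0.56 (adjusted p = 0.00649) and -0.65 (adjusted p = 0.0189). With libraries centred on their medians the Ehmt2 difference was 0.10 (SE 0.12, adjusted p = 0.536) and not called, and that of Setdb1 was called in WT HSC as well (-0.76, adjusted p = 0.0271). Of the exonic bases of Setdb1, 4.73% are shared with other genes. Trim28, the most abundant of the list at 243.6 to 306.3 TPM, was not called, but was lower with the centring (-0.55 and -0.66, adjusted p = 0.00881 and 0.00248). Dnmt3l, the cofactor of the de novo enzymes in germ cells, was at 0 to 0.0200 TPM.

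A list of readers of methylated CpG and related proteins held 9 genes, of which 3 were higher and 2 lower in each stem cell group than in WT KL. The 3 include Zbtb4, at 0.257 and 0.348 TPM in replicates 2 and 3 of WT KL. Zbtb4 passed the filter on low values through the libraries where it is high, so these counts are not a test of the list. Calls over all tested genes were 26.7% higher and 10.8% lower in WT HSC, and 31.3% and 14.3% in Evi1 HSC. Zbtb38, a zinc finger reader, stood at 15.3 to 23.3 TPM in the 5 stem cell libraries and 6.65 and 2.37 TPM in replicates 2 and 3 of WT KL, differences of 2.18 for WT HSC (SE 0.37, limma adjusted p = 0.00481) and 1.92 for Evi1 HSC (SE 0.34, adjusted p = 0.00403). Mbd2 and Mbd3, which occur in alternative forms of the NuRD repressor complex, were lower. The Mbd2 differences were -1.19 (adjusted p = 0.046) and -1.35 (adjusted p = 0.0182), and those of Mbd3 were -0.54 (adjusted p = 0.0146) and -0.61 (adjusted p = 0.00472). Uhrf2, the relative of Uhrf1 and the most abundant of the list, ranged from 59.1 to 155.8 TPM and was not called.

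Of 15 tested TET partners and base excision genes, 4 were higher and 2 lower in WT HSC than in WT KL, and 4 were higher and 3 lower in Evi1 HSC. These 6 and 7 of 15 lie near the shares of all tested genes called, 37.5% and 45.5%. Cxxc5, a CXXC-domain protein, stood at 6.61 to 8.27 TPM in the 5 stem cell libraries and 0.645 and 0.408 TPM in replicates 2 and 3 of WT KL. It passed the filter on low values through the libraries where it is high, so no test is given for it, though the counts hold it. Ogt, the O-GlcNAc transferase that binds TET proteins, stood at 171.1 to 248.3 TPM against 80.9 and 88.7 TPM in the same libraries. The Ogt differences were 1.14 (limma adjusted p = 0.00126) and 1.43 (adjusted p = 0.000228). D2hgdh, which clears the TET inhibitor D-2-hydroxyglutarate, was higher by 1.37 (adjusted p = 0.00437) and 1.03 (adjusted p = 0.00711), the second at 0.57 and not called with libraries centred on their medians (adjusted p = 0.0507). Gadd45a and Gadd45g, stress-response genes linked to demethylation, were lower, Gadd45a at -1.37 and -1.42 (adjusted p = 0.012 and 0.00571) and Gadd45g at -1.28 and -1.12 (adjusted p = 0.0304 and 0.0292). Of Gadd45a's exonic bases, 19.1% are shared with E230016M11Rik.

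Of 10 genes of methyl donor synthesis, 3 were higher and 5 lower in WT HSC than in WT KL, and 3 were higher and 7 lower in Evi1 HSC. The shares of all tested genes were 26.7% higher and 10.8% lower in WT HSC, and 31.3% and 14.3% in Evi1 HSC. Mthfd1, a folate enzyme of the cytosol, stood at 45.2, 40.8 and 35.6 TPM across Evi1 HSC, 66.3 and 65.1 TPM in replicates 1 and 2 of WT HSC, and 186.8 and 180.9 TPM in replicates 2 and 3 of WT KL. The libraries labelled WT HSC replicate 3 and WT KL replicate 1 stood at 157.0 and 56.7 TPM, in this order. The 3 groups did not overlap over 7 libraries. Mthfd1 differed by -1.47 (SE 0.14, limma adjusted p = 0.00047) and -2.16 (SE 0.13, adjusted p = 5.48e-05) from WT KL. Evi1 HSC minus WT HSC was -0.69 (SE 0.13) with an adjusted p of 0.14, the lowest of the 50 genes in that comparison, and did not pass the test. The mitochondrial folate enzymes Mthfd2 and Shmt2 were lower, at -1.80 and -0.98 in WT HSC (adjusted p = 0.00654 and 0.00507) and -1.78 and -1.42 in Evi1 HSC (adjusted p = 0.00357 and 0.000552). Mtrr, which reactivates methionine synthase, was lower, at -0.93 and -1.29 (adjusted p = 0.00712 and 0.000986). Mat2a, which makes the methyl donor S-adenosylmethionine and is the most abundant of the list, was lower in Evi1 HSC, at -0.62 (adjusted p = 0.00841) and was not called in WT HSC (-0.41, adjusted p = 0.0602; centred -0.89, adjusted p = 0.00294), with 11.3% of its exonic bases in common with Particl. Of the differences from WT KL named in the 5 lists, 1 turned its sign with libraries centred on their medians, that of Ehmt2 in WT HSC (0.20 and -0.28 centred), and those of Atrx, Dnmt3c, Ehmt2 and D2hgdh given above lost a call.

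**Figure D4:**
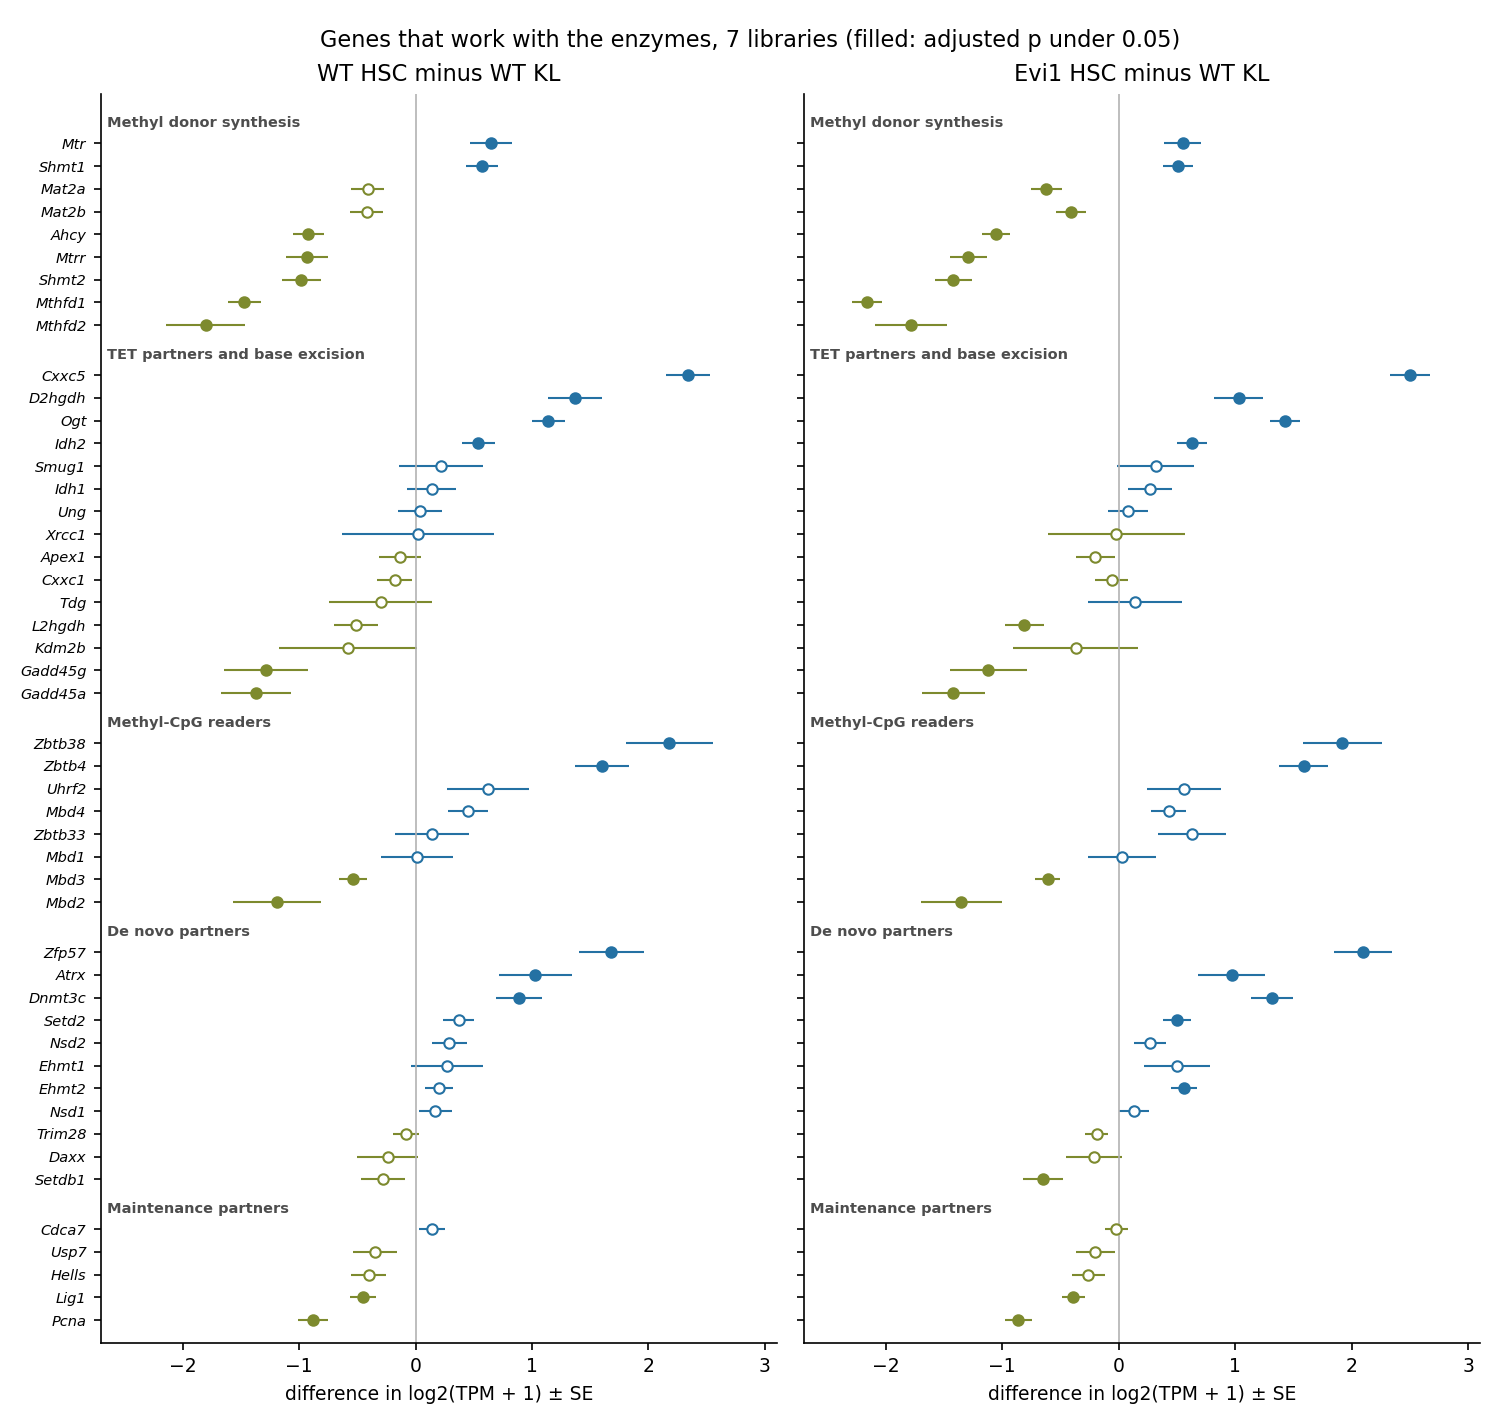
Differences in log2(TPM + 1) with SE over 7 libraries for 48 of the 50 tested genes that work with the enzymes, grouped by list, for WT HSC minus WT KL (left) and Evi1 HSC minus WT KL (right); filled points have an adjusted p under 0.05, blue points lie above 0 and green points below. Filled points number 22 on the left and 28 on the right, and both panels share the WT KL libraries. They include Zfp57, Zbtb4 and Cxxc5, which passed the filter on low values through the libraries where they are high.

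Germline genes that DNA methylation is known to keep silent in body cells were looked up as a readout. Of 15 such genes, Ddx4 alone passed the filter on low values, and Mael and Sohlh2 were listed at 0 in all libraries. Ddx4, an RNA helicase of germ cells, stood at 15.1, 12.5 and 10.8 TPM across Evi1 HSC, 8.03 and 13.2 TPM in replicates 1 and 2 of WT HSC, and 0.379 and 0.576 TPM in replicates 2 and 3 of WT KL. Of the 2 libraries against their labels, that labelled WT HSC replicate 3 held 0.536 TPM and that labelled WT KL replicate 1 held 10.2 TPM. The Ddx4 levels of the stem cell groups overlapped and, over 7 libraries, lay above those of WT KL. Ddx4 passed the filter through the libraries where it is high, so no test is given for it. DNA methylation itself was not measured.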

How the data were processed

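The deposited values are TPM per gene, 1 library per file and none pooled, per the file headers. The file of WT HSC replicate 2 names its values C_H3 without explanation in the labels, and they were used as TPM. The submitters' processing notes name HISAT2, StringTie and mm10; roles, versions and strand setting are not given in the sources read. Listed genes made up 56.9 to 63.8% of the TPM total of a library.

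On log2(TPM + 1), limma 3.58.1 (R 4.3.3) was fitted with a mean per group and moderated statistics with a trend. Benjamini-Hochberg adjustment ran over the 19461 genes that reached 1 TPM in 3 or more of 9 libraries, and an adjusted p under 0.05 made a call. Genes that are low in some groups can pass this filter through the libraries where they are high, and counts of calls hold such genes. The log2 scale understates changes of low genes. The fit was run over 9 libraries as labelled and over 7, without the libraries labelled WT HSC replicate 3 and WT KL replicate 1, and was checked on simulated data.

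All 7 members are named. Of each pathway list, genes called over 7 libraries with no overlap between groups and a higher group mean of 5 TPM or more are named, at most 4 by size of change per comparison, and the most abundant member. Genes at 0 throughout, Dnmt3l, Ddx4, Zfp57, Zbtb4, Gata2, Cpa3, Mrc1 and Hnf4a were named after their values were seen. So were the other cell markers besides Mecom, Hlf, Ly6a and Mpo. The 3 most similar genes per member have a mean of at least 10 TPM. A few genes that these rules select are not reported here. The members, lists and left-out libraries were chosen with earlier results of these data known. Other pseudocounts, filters, scalings, sample sets, a replicate block and leaving out each replicate were tried. Promoters came from RefSeq GRCm38.p6 and exons from GENCODE M21.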

Additional observations from a re-analysis of the deposited data

How the results depend on the processing

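Each library has 100 cells and an unknown read depth, and 2 libraries remain in each WT group of the 7-library fit. There, 233 of 252 alternative values of the 7 genes kept their sign and side of the threshold, and Dnmt3a, Dnmt3b and Tet1 stayed called against WT KL in all 12 alternatives. Leaving out both libraries against their labels, the counts of the 9-library fit moved from 0 to 4 of the 7 genes and to 24 and 30 pathway genes in WT HSC and Evi1 HSC against WT KL. Dnmt3a (-0.436) and Uhrf1 (0.0866) in Evi1 HSC against WT HSC, Tet2 (0.0615) in WT HSC against WT KL and Tet3 (0.0538) in Evi1 HSC against WT KL then turned their signs. Leaving out 1 library at a time gave 13 to 24 pathway genes in WT HSC against WT KL and 19 to 30 in Evi1 HSC against WT KL over 7 libraries. Signs turned with centring over 9 libraries for Dnmt1 (-0.109 against WT HSC, -0.255 against WT KL) and Tet2 (-0.128 against WT KL) in Evi1 HSC. Over 7 libraries they turned against WT KL for Tet2 in WT HSC (-0.415) and for Tet2 (-0.0903), Dnmt1 (-0.412) and Tet3 (-0.413) in Evi1 HSC. Centring removes the shift of 0.47 or 0.48 between library medians.

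No label says that the replicate numbers pair samples. Over 7 libraries same-numbered libraries had correlations of deviations from the group means of -0.0619 to -0.00657, and over 9 of -0.636 to 0.704. With 2 libraries in a WT group the deviations mirror each other, and over 9 the 2 libraries against their labels enter them. These values therefore cannot decide whether the numbers pair samples. With the replicate block over 7 libraries, Uhrf1 in WT HSC against WT KL was -0.581 (adjusted p = 0.0683) and no longer called, and Tet1 in Evi1 HSC against WT HSC turned to -0.02.

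Leaving out 1 library at a time also turned signs of uncalled differences, and the cause was not tested. In Evi1 HSC against WT HSC the ranges were -0.436 to 1.49 for Dnmt3a and -0.295 to 0.0866 for Uhrf1 over 9 libraries, and -1.05 to 0.183 for Dnmt3a and -0.000988 to 0.179 for Tet1 over 7. In WT HSC against WT KL they were -0.0709 to 0.0111 for Dnmt1 over 9, and -0.122 to 0.00418 for Dnmt1 and -0.091 to 0.214 for Tet2 over 7. In Evi1 HSC against WT KL they were -0.0268 to 0.376 for Tet2 and -0.178 to 0.0538 for Tet3 over 9, and -0.00889 to 0.118 for Dnmt1 and -0.0417 to 0.145 for Tet3 over 7.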
